A study of Mus musculus with 22 samples.

Results

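The 30 genes described here make cholesterol or control how much of it a cell holds. They were taken by symbol from a list of synthesis enzymes, genes of the SREBP2 control loop, and genes of sterol uptake, transport, storage and efflux, with no expression value in the rule. All 30 were found among the 36555 genes of the deposited RNA table, and all 30 were among the 17953 genes tested.

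RNA was sequenced from mouse liver and liver tumors in a study of hepatoblastoma, a liver tumor of early childhood, in which the transcriptional co-activator YAP1 was switched on or off. The YAP1on group was 4 tumors that carry 1 mouse code and were on doxycycline, and the day 6 group was 4 tumors with 1 other mouse code, off doxycycline and 6 days after YAP1 was turned off, which the design text calls liver. Both came from a Jackson strain with the transgene Tg(CAG-rtTA3)4288Slowe on a B6N.FVB(Cg) background. In it the broadly active CAG promoter drives rtTA3, a protein that needs doxycycline to activate its target promoter. The hbHep group, which the series describes as hepatocyte-like cells from hepatoblastoma, was liver of 3 FAH Delta Exon 5 mice, mouse 1 at day 121, mouse 2 at day 114 and mouse 3 at day 117, with 2 technical libraries of each mouse averaged here. The FAH liver group was 3 FAH Delta Exon 5 mice on NTBC, titled WT in the labels, with tissue given as liver and cell type as hepatocyte. NTBC is a drug that protects these animals, which lack the last enzyme of tyrosine breakdown. NTBC is stated for FAH liver alone, and the labels do not say how much of the hbHep liver RNA came from host cells. In each tumor group the effects of the animal and of the treatment cannot be told apart, nor can strain and group between tumors and FAH Delta Exon 5 livers. In bulk RNA, fewer cells of a type and less RNA per cell cannot be told apart either.

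A cell makes cholesterol from acetyl-CoA through mevalonate, farnesyl diphosphate, squalene and lanosterol, and the liver is a main site of this synthesis. When sterols run low in the membrane of the endoplasmic reticulum, SCAP carries the transcription factor SREBP2 to the Golgi, where it is cut and released to switch on the synthesis genes, and INSIG proteins hold SCAP back when sterols are plentiful. Hepatocytes also take cholesterol up, store it as esters, pass it to lipoproteins and secrete it into bile.

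Promoter sequence was available for 25 of the 30 genes in the RefSeq table of build GRCm38.p6. Soat2, Stard4, Sqle, Fdft1 and Fdps had no entry. The 250 bases before each start were searched on both strands for the core of a sterol regulatory element (TCACNCCA) and for the CCAAT box (CCAAT), which is read by the factor NF-Y, a known partner of SREBP2. The sterol element core was present in 3 of the 25 genes (12%), against 4.2% of all 27025 genes with an entry. CCAAT was present in 21 of the 25 (84%), against 37.5% of all genes. Both shares over all genes count genes with an entry whether or not their RNA was tested here. The 21 include Ggps1, Mylip and Npc1l1, whose RNA did not follow that of the synthesis enzymes, as given below. A match is a description of the letters and not evidence of binding. The 3 genes with the sterol element core are shown first, each as the 200 bases before the start, 5′ to 3′ in the direction of the gene, with matches to either motif on either strand in capitals. They are Hmgcs1 (chr13:119690151-119690350, plus strand), Msmo1 (chr8:64733579-64733778, minus strand) and Srebf2 (chr15:82147069-82147268, plus strand).
Hmgcs1: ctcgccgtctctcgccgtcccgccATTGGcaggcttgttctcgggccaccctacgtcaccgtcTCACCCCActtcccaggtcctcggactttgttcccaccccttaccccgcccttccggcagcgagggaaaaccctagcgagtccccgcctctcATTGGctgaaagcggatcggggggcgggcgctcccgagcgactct
Msmo1: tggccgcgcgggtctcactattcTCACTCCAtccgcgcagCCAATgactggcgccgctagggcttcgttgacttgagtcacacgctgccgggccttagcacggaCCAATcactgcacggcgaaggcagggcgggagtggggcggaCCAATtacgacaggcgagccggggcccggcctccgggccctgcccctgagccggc
Srebf2: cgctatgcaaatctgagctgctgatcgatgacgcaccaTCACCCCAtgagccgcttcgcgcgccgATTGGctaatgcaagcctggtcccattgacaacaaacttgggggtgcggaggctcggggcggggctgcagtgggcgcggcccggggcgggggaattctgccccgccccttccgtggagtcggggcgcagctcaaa

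The sterol element core and the nearest CCAAT match were 34 bases apart in Hmgcs1, 9 in Msmo1 and 19 in Srebf2. A further 4 stretches are shown, chosen with the RNA results known. They are those of Idi1 and Sc5d, among the largest rises from YAP1on to day 6 tumors, and of Npc1l1, high in hbHep. The last is the gap between the starts of Abcg5 and Abcg8, which lie head to head and share it. The stretches are Idi1 (chr13:8885506-8885605, plus strand), Sc5d (chr9:42264301-42264400, minus strand), Npc1l1 (chr11:6230246-6230345, minus strand) and, in the direction of Abcg8, chr17:84683012-84683120 on the plus strand.
Idi1: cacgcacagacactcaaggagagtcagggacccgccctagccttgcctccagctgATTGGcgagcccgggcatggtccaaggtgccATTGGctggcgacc
Sc5d: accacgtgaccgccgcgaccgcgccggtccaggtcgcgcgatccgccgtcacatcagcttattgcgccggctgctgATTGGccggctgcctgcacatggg
Npc1l1: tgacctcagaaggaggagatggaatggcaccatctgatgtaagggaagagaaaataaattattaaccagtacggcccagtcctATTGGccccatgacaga
Abcg8: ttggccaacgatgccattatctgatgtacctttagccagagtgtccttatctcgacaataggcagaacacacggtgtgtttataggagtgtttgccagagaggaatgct

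The CCAAT match lay 24 bases before the start in Sc5d and 17 in Npc1l1, and Idi1 had 2, at 45 and 14 bases. The gap between Abcg5 and Abcg8 held neither motif, and the matches counted for Abcg8, at 175 and 114 bases before its start, fell beyond it. The Abcg8 start used here is the annotated start next to that of Abcg5. The annotated span of Abcg8 begins further upstream, at chr17:84676302, within that of Abcg5.

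In the 4 groups, 14 of the 18 synthesis enzymes were higher in both day 6 tumors and hbHep than in both YAP1on tumors and FAH liver. Acat2, Tm7sf2, Sc5d and Ebp did not show this pattern, and Ebp was highest in FAH liver. Which of YAP1on tumors and FAH liver was lower depended on the gene and on the scaling, as given below. Values are abundances, read here as reads per base of transcript scaled between libraries. The labels do not state this unit, and comparing or summing levels of different genes rests on that reading. A gene is called where limma's adjusted p over all genes tested was below 0.05. Summed over the 18 enzymes, abundance was 36706 ± 7507 (SD, n = 4) in YAP1on tumors, 109115 ± 4087 (SD, n = 4) in day 6 tumors, 96468 ± 31130 (SD, n = 3) in hbHep and 40890 ± 3317 (SD, n = 3) in FAH liver. The lowest day 6 tumor stood at 104902 and the highest YAP1on tumor at 43312. Hmgcs1 and Sc5d were the most abundant enzymes and weigh most in these sums.

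**Figure D1:**
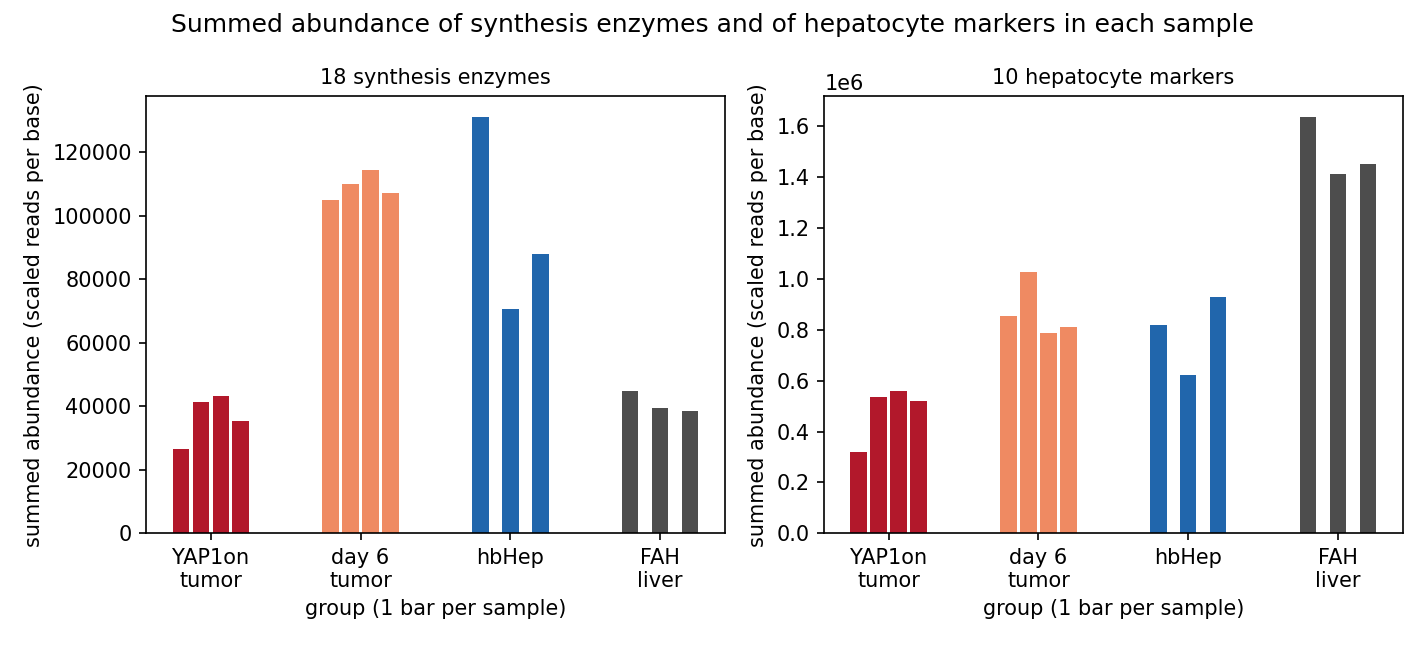
Summed abundance (scaled reads per base, linear axes from 0) of the 18 synthesis enzymes (left) and of 10 hepatocyte markers (right), 1 bar per sample in 4 groups. Enzyme sums of day 6 tumors lie between 104902 and 114355, above all YAP1on tumors (26619 to 43312) and FAH livers (38431 to 44662), while marker sums are highest in FAH liver.

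Between day 6 and YAP1on tumors, 26 of the 30 genes rose and 0 fell, where 12.8% of all genes tested were called higher and 10.8% lower. Rose and fell here mean called higher or lower in day 6 than in YAP1on tumors, and no animal was followed over time. The 4 tumors of each group came from 1 mouse, so these calls hold no spread between animals for either group. All 18 synthesis enzymes were among the 26, and in all 26 the 4 day 6 tumors lay above the 4 YAP1on tumors without overlap, as did 18.1% of all genes tested. The median log2 difference was 1.18 over the 30 genes and 1.42 over the enzymes, against 0.02 over all genes tested. At an unadjusted p below 0.05 limma gave 27 higher and 0 lower, and Ggps1, Mylip, Npc1l1 and Abca1 were not called. With each library scaled to an equal total signal, which moved the median of all genes to -0.26, 23 rose and 1 fell: Srebf2 (0.35), Stard4 (0.34) and Soat2 (0.18) lost their calls and Ggps1 (-0.52) was called lower. The count was 26 without YAP1on tumor 1, which was the lowest of its group in 17 of the 18 enzymes. That tumor also had the lowest summed hepatocyte markers of its group, 320947 against 519448 to 559236 in the others. Soat2 lost its call without day 6 tumor 4 (log2 0.41, adjusted p = 0.0571 by limma) and Abca1 gained one without YAP1on tumor 4 (0.46, adjusted p = 0.048).

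Other cell types moved between these tumor groups as well. Of 10 hepatocyte markers, 5 rose and 0 fell in day 6 tumors (median log2 0.80), and their summed abundance was 320947 to 559236 in YAP1on tumors and 789681 to 1029110 in day 6 tumors. Cholangiocyte markers summed to 29827 to 39578 in YAP1on and 3489 to 8644 in day 6 tumors, macrophage markers to 25080 to 35274 and 14571 to 18660, and all 10 genes of G2/M and mitosis fell. No marker of the lists was at 0 in all samples of any group. Their part in the results was not tested.

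Between hbHep and FAH liver, 18 of the 30 genes were called higher and 3 lower, where 19.9% of all genes were higher and 17.1% lower. The 18 included 15 of the 18 enzymes, and the median log2 difference was 0.73 over the 30 genes and 1.11 over the enzymes, against -0.01 over all genes tested. Hepatocyte markers went the other way in this comparison, with 0 of 10 higher and 5 lower, and sums from 622522 (mouse 2) to 928775 in hbHep against 1412540 to 1636089 in FAH liver. Of 10 macrophage markers 7 were higher and 1 lower in hbHep, and all 10 G2/M genes were higher. The part of these cells in the result was not tested. Ebp, Scap and Abcg5 were lower in hbHep. Equal totals moved the median of all genes in this comparison to 0.53 and the split of the 30 genes to 20 higher and 0 lower, with Ebp at -0.19, Abcg5 at -0.13 and Scap at 0.02. In a fit of these 2 groups alone, Pmvk, Acat2, Ebp, Scap and Stard4 were not called (adjusted p of 0.0529 to 0.0966 by limma).

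In hbHep against day 6 tumors, 5 of the 30 genes were higher and 6 lower, where 24.1% of all genes were higher and 21.7% lower, and the median log2 difference was 0.13 against -0.02 over all genes. The split depended on scaling, with 7 higher and 4 lower in the values as deposited and 4 higher and 8 lower after quantile normalization or equal totals. Against YAP1on tumors, 27 were higher in hbHep and 1 lower, where 28.8% of all genes were higher and 26.3% lower, with a median of 1.23 against -0.02, and the split was 21 to 3 with equal totals. In hbHep against day 6 tumors 3 of 10 hepatocyte markers were higher and 4 lower, and all 8 T, NK and B cell markers tested were lower. Against YAP1on tumors 4 hepatocyte markers were higher and 1 lower, and 7 of 9 cholangiocyte and 5 of 10 macrophage markers were lower. The part of these cells in the counts was not tested.

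Set against FAH liver, day 6 tumors had 17 of the 30 genes higher and 5 lower, where 31.6% of all genes were higher and 31% lower, with a median of 0.61 against 0.03 over all genes. The split was 21 to 3 after quantile normalization and 24 to 2 with equal totals. YAP1on tumors had 3 higher and 14 lower than FAH liver, where 34.4% of all genes were higher and 33.5% lower, with a median of -0.30 against 0.04. That direction did not hold under other scalings, with 9 higher and 6 lower after quantile normalization and 16 higher and 5 lower with equal totals, which moved the median of all genes to 0.73 for day 6 tumors and to 1.03 for YAP1on tumors. Against FAH liver, 9 of 10 hepatocyte markers were lower in YAP1on tumors and 4 in day 6 tumors (with equal totals 4 lower in YAP1on tumors, and 3 higher and 2 lower in day 6 tumors), and 8 and 7 of 10 macrophage markers and 9 and 6 of 9 cholangiocyte markers were higher. Their part in the results was not tested. The comparisons share samples, so their calls are not independent of each other.

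**Figure D2:**
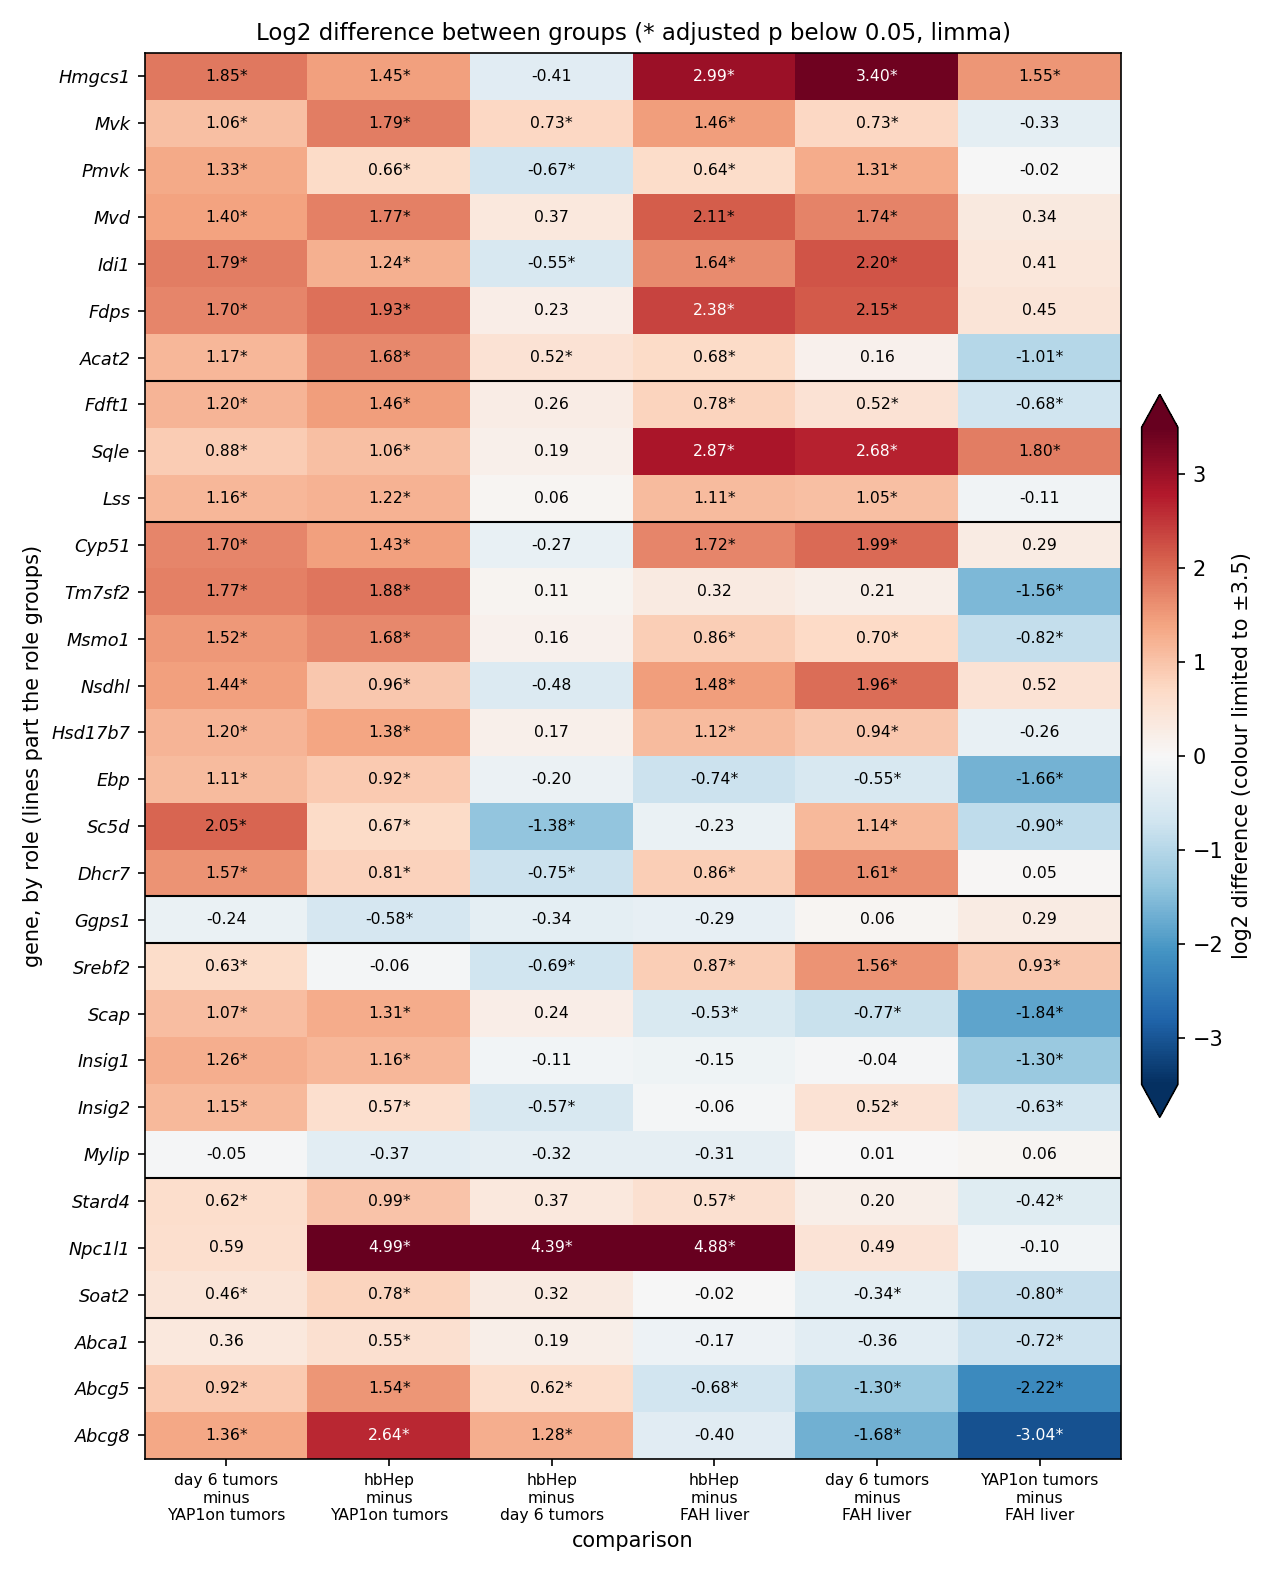
Log2 difference of each of the 30 genes (vertical axis, by role) in the 6 comparisons between groups (horizontal axis), with red higher and blue lower in the group named first, and an asterisk where limma's adjusted p was below 0.05. All 18 synthesis enzymes are red with an asterisk in the column of day 6 against YAP1on tumors, while the YAP1on against FAH liver column, whose split changes with the scaling, is mixed.

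Npc1l1 is among the higher calls of hbHep in 3 comparisons and, as given below, passed the filter on low values through hbHep alone. Without it 29 genes remain, of which 4 were higher and 6 lower than in day 6 tumors, 26 and 1 against YAP1on tumors, and 17 and 3 against FAH liver.

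By the calls in all 6 comparisons, 14 of the 30 genes were higher in both day 6 tumors and hbHep than in both YAP1on tumors and FAH liver, and all 14 were synthesis enzymes: Hmgcs1, Mvk, Pmvk, Mvd, Idi1, Fdps, Fdft1, Sqle, Lss, Cyp51, Msmo1, Nsdhl, Hsd17b7 and Dhcr7. Of these, Pmvk (0.23), Nsdhl (0.53) and Dhcr7 (0.39) were not called in hbHep against YAP1on tumors with equal totals, nor Pmvk (0.40) after quantile normalization. In 13 genes YAP1on tumors were lower than each other group, among them Ebp, Sc5d, Tm7sf2, Acat2, Scap, both Insig genes, Abcg5 and Abcg8, though with equal totals, or for Fdft1, Msmo1 and Sc5d also after quantile normalization, Fdft1, Msmo1, Sc5d, Insig2, Stard4 and Soat2 stood above FAH liver. Against FAH liver, Acat2 (-0.31 and -0.02) and Insig1 (-0.18 and -0.32) also lost the lower call after quantile normalization and with equal totals, and Insig2 (-0.28) and Stard4 (-0.18) after quantile normalization. Day 6 tumors were higher than every other group in Pmvk, Idi1, Sc5d, Dhcr7, Srebf2 and Insig2, and hbHep in Mvk and Acat2.

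**Figure D3:**
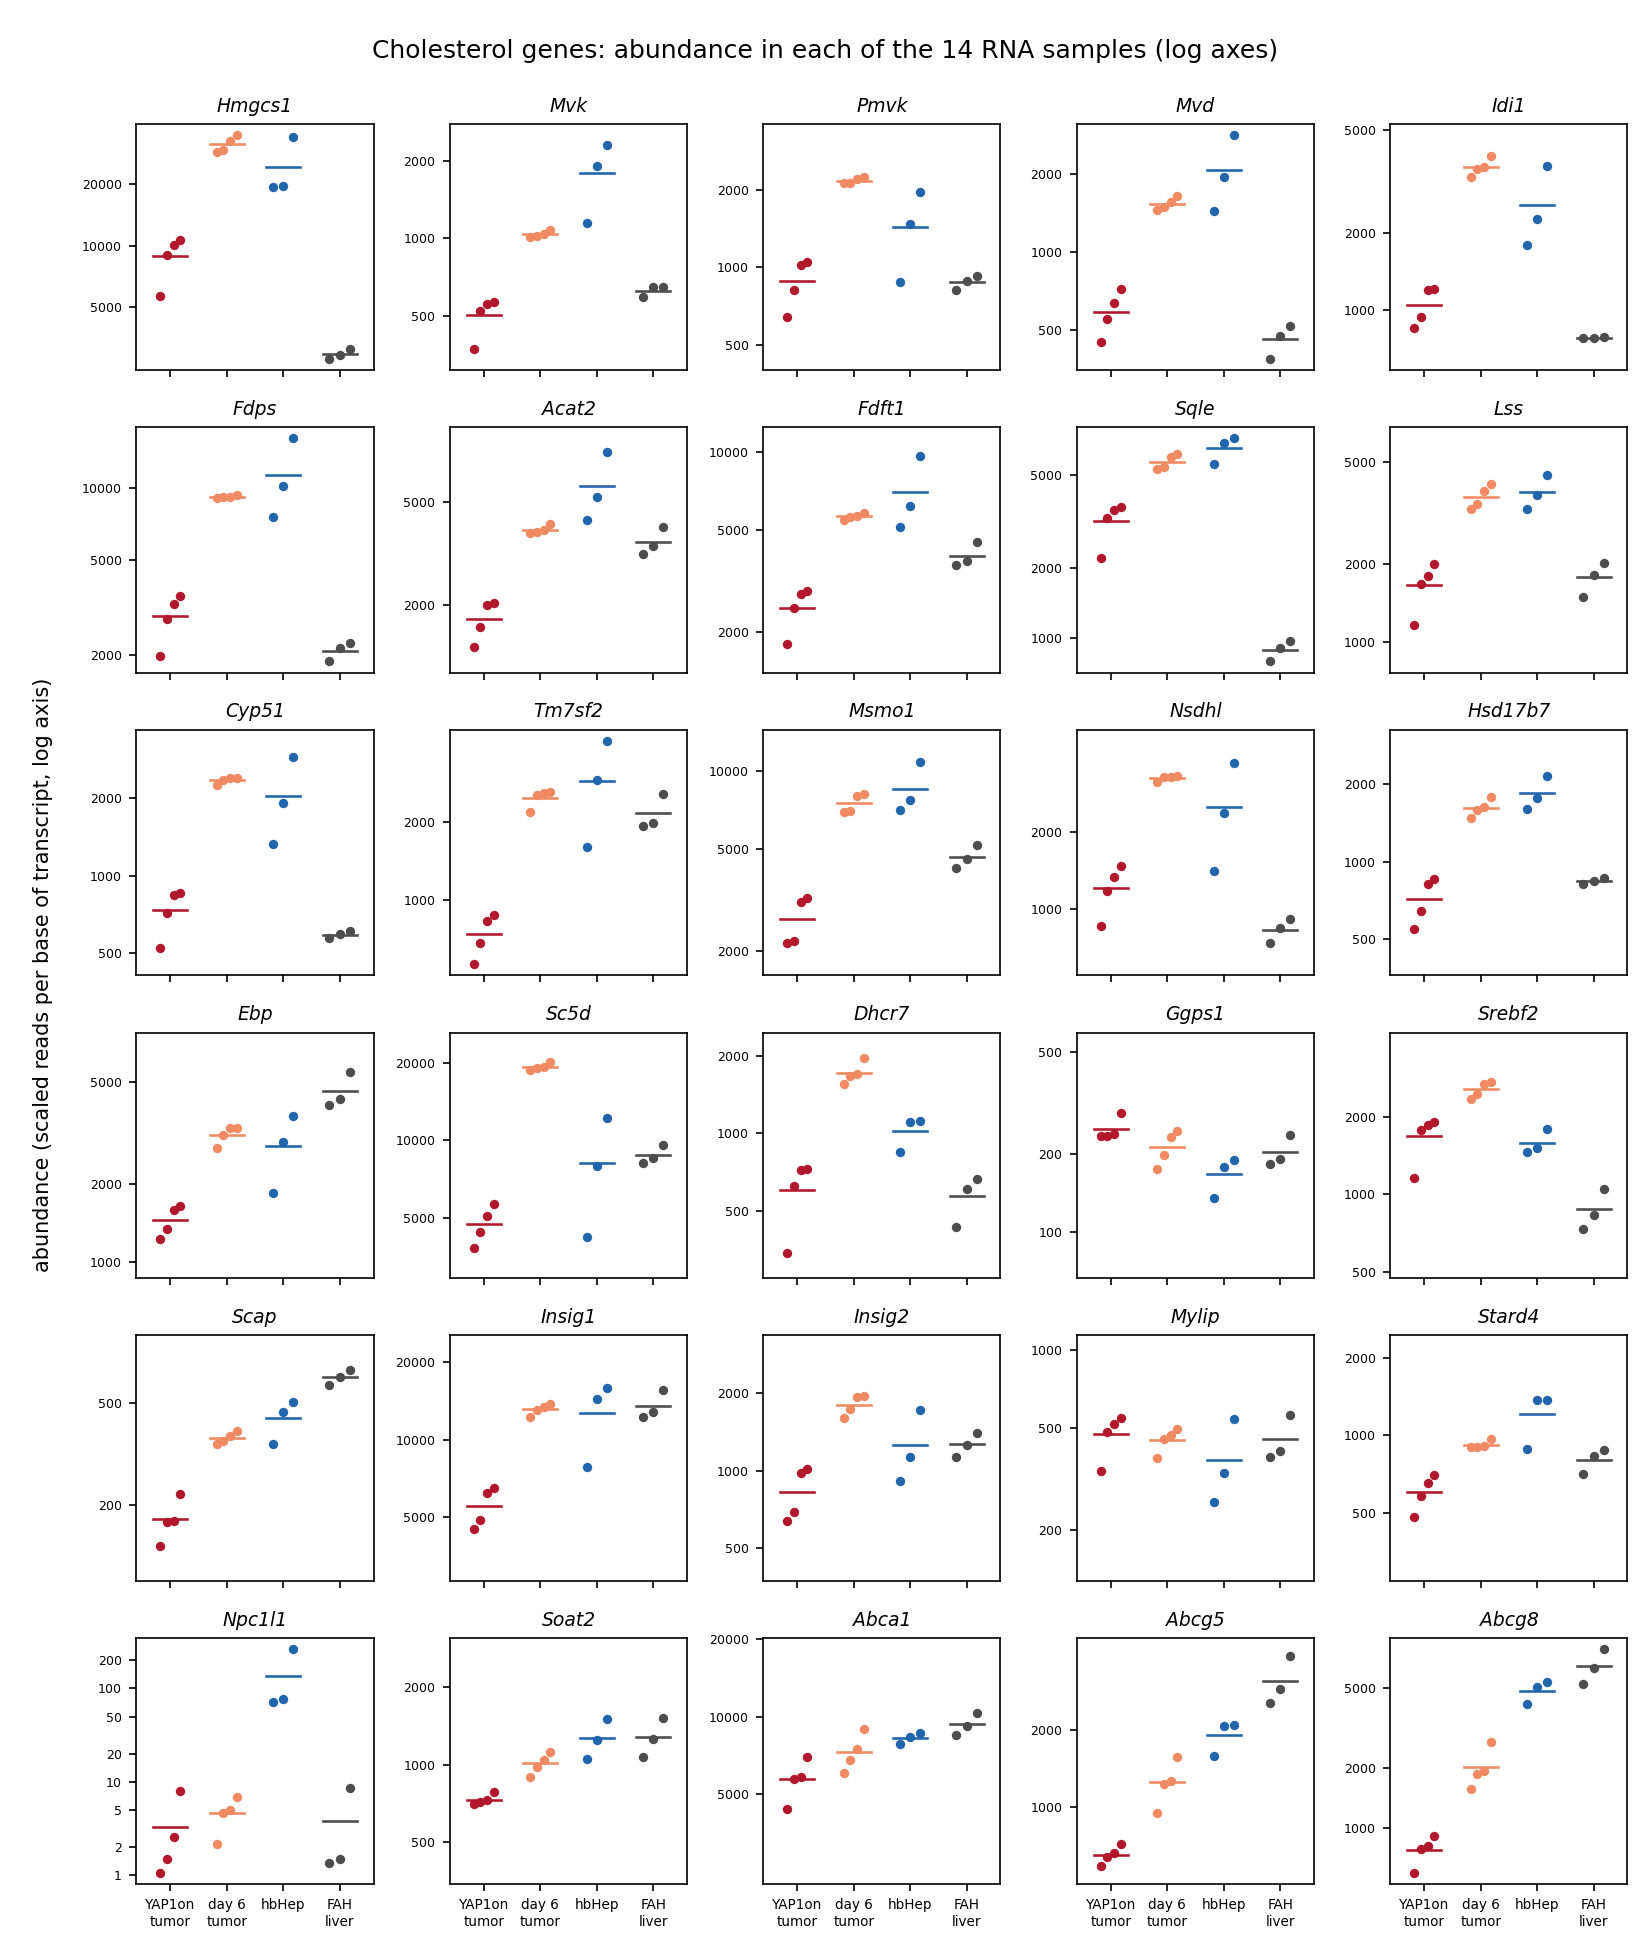
Abundance (scaled reads per base of transcript, log axes) of the 30 genes in each of the 14 RNA samples, with 1 point per sample, a line at the group mean, and hbHep points as means of 2 technical libraries. Day 6 tumors lie close together above the YAP1on tumors in the synthesis enzymes, and Npc1l1 is at 72.1 or above in hbHep and at 8.65 or below in every other sample.

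The mevalonate steps were led by Hmgcs1, the cytosolic HMG-CoA synthase that makes the precursor of mevalonate. Its abundance was 5713, 10117, 10662 and 8987 in YAP1on tumors 1 to 4, 29461, 32447, 34638 and 28598 in day 6 tumors, 34162, 19573 and 19402 in hbHep mice 1 to 3, and 2929, 2809 and 3114 in FAH livers. FAH liver was lowest without overlap, YAP1on tumors came next, and hbHep mouse 1 lay within the range of the day 6 tumors while mice 2 and 3 lay below it. The log2 difference was 1.85 (SE 0.21, adjusted p = 1.09e-05 by limma) between day 6 and YAP1on tumors and 2.99 (SE 0.24, adjusted p = 3.24e-07) between hbHep and FAH liver. Day 6 tumors exceeded FAH liver 10.6-fold, and YAP1on tumors exceeded it 2.93-fold.

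Mvk, mevalonate kinase, had the smallest rise of these steps in day 6 tumors. Its values were 369.6, 555.2, 566.9 and 519.1 in YAP1on tumors, 1010, 1035, 1078 and 1022 in day 6 tumors, 2311, 1146 and 1910 in hbHep, and 643.3, 643.9 and 590.6 in FAH liver. No 2 groups overlapped, with YAP1on lowest and hbHep highest. The rise from YAP1on to day 6 tumors was 1.06 (SE 0.18, adjusted p = 0.000456 by limma), and hbHep exceeded day 6 tumors by 0.73 (SE 0.19, adjusted p = 0.00668).

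Pmvk, phosphomevalonate kinase, differed least of the mevalonate steps between hbHep and FAH liver. It stood at 643.1, 1017, 1048 and 816.4 in YAP1on tumors, 2199, 2131, 2238 and 2118 in day 6 tumors, 1959, 880.7 and 1475 in hbHep, and 888.1, 815.7 and 927.6 in FAH liver. Day 6 tumors were above all other samples, and hbHep mouse 2 lay inside the FAH liver range. The hbHep to FAH liver difference was 0.64 (SE 0.23, adjusted p = 0.0397 by limma) and was not called in the values as deposited (0.63) or without hbHep mouse 1 (0.38), hbHep mouse 3 (0.58), any FAH liver (0.59 to 0.68) or day 6 tumor 1 (0.64). Against YAP1on tumors, Pmvk in hbHep lost its call without hbHep mouse 1 (0.40) or 3 (0.60) or YAP1on tumor 1 (0.52), after quantile normalization (0.40) and with equal totals (0.23).

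The remaining mevalonate enzymes rose from YAP1on to day 6 tumors as well. Mvd, which decarboxylates mevalonate diphosphate, went from 589.9 ± 116 (SD, n = 4) to 1538 ± 81.6 (SD, n = 4), and stood at 2066 ± 695 (SD, n = 3) in hbHep and 462.1 ± 66.7 (SD, n = 3) in FAH liver. Idi1, the isomerase of the isoprene unit, stood at 1052 ± 179, 3606 ± 285, 2565 ± 969 and 783.6 ± 5.89 in the same groups. Fdps, which joins these units to farnesyl diphosphate, stood at 2904 ± 678, 9205 ± 123, 11328 ± 4431 and 2077 ± 183. All 3 were called higher in both day 6 tumors and hbHep than in FAH liver, with log2 differences of 1.64 to 2.38.

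Acat2 is the cytosolic thiolase at the entry of the pathway. Its means were 1764 ± 317 in YAP1on tumors, 3918 ± 146 in day 6 tumors, 5781 ± 1839 in hbHep and 3518 ± 454 in FAH liver. Day 6 tumors and FAH liver differed by 0.16 (SE 0.18, adjusted p = 0.46 by limma), and hbHep exceeded day 6 tumors by 0.52. Day 6 tumors were called higher than FAH liver after quantile normalization (0.70) and with equal totals (0.86), and hbHep was then not called against day 6 tumors (0.24 and 0.37). The hbHep call against day 6 tumors was lost without hbHep mouse 1 (0.27) or 3 (0.56) and without day 6 tumor 1, 2 or 4 (0.50 to 0.51), and the call against FAH liver without hbHep mouse 1 (0.44) or FAH liver 2 (0.60).

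From squalene to lanosterol, Fdft1, squalene synthase, rose most in day 6 tumors. It stood at 1796, 2881, 2799 and 2474 in YAP1on tumors, 5438, 5607, 5804 and 5653 in day 6 tumors, 9682, 5136 and 6175 in hbHep, and 4455, 3762 and 3627 in FAH liver. YAP1on tumors were lowest and FAH liver next, without overlap, and the wide hbHep values enclosed the narrow day 6 values. The day 6 to YAP1on difference was 1.20 (SE 0.18, adjusted p = 0.000166 by limma). The day 6 call against FAH liver (0.52) was lost without FAH liver 2 (0.48) or 3 (0.46) and without day 6 tumor 2 (0.52), 3 (0.50) or 4 (0.51), and in the values as deposited (0.41).

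Sqle, squalene epoxidase and a rate-controlling step, rose least of these 3 enzymes in day 6 tumors and differed most from FAH liver. Its values were 2189, 3516, 3641 and 3265 in YAP1on tumors, 5416, 5949, 6123 and 5296 in day 6 tumors, 7171, 5541 and 6819 in hbHep, and 792, 971.4 and 904.6 in FAH liver. Every tumor and hbHep sample lay above all FAH livers. The differences were 0.88 (SE 0.15, adjusted p = 0.000522 by limma) for day 6 against YAP1on tumors and 2.87 (SE 0.17, adjusted p = 1.58e-08) for hbHep against FAH liver. Lss, which closes the ring to lanosterol, stood at 1661 ± 358, 3663 ± 377, 3824 ± 586 and 1776 ± 267 in YAP1on tumors, day 6 tumors, hbHep and FAH liver. None of the 3 was called between hbHep and day 6 tumors.

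Of the 8 enzymes from lanosterol to cholesterol, all 8 rose in day 6 tumors, and 5 were higher and 1 lower in hbHep than in FAH liver. Sc5d, sterol C5-desaturase, rose most of all 30 genes. It stood at 3796, 5084, 5651 and 4383 in YAP1on tumors, 18708, 19126, 19338 and 20061 in day 6 tumors, 12205, 4224 and 7948 in hbHep, and 9615, 8504 and 8152 in FAH liver. Day 6 tumors were far above every other sample, and the hbHep mice ran from the YAP1on range to above FAH liver. The rise was 2.05 (SE 0.24, adjusted p = 1.33e-05 by limma), 4.13-fold, and hbHep minus day 6 tumors was -1.38 (adjusted p = 0.000478). The difference of hbHep from FAH liver was -0.23 (adjusted p = 0.539), and its call against YAP1on tumors (0.67) was lost without hbHep mouse 1 (0.31) or 3 (0.62) or YAP1on tumor 1 (0.57) or 4 (0.64), after quantile normalization (0.05) and with equal totals (0.24).

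Ebp, the sterol Δ8-Δ7 isomerase, rose least of these 8 enzymes in day 6 tumors and was highest in FAH liver. It stood at 1227, 1637, 1591 and 1332 in YAP1on tumors, 3093, 3312, 2755 and 3303 in day 6 tumors, 3678, 1854 and 2925 in hbHep, and 5442, 4263 and 4044 in FAH liver. No tumor or hbHep sample reached the FAH livers. The day 6 to YAP1on difference was 1.11 (SE 0.18, adjusted p = 0.00028 by limma), and hbHep minus FAH liver was -0.74 (SE 0.21, adjusted p = 0.0105). That call was lost without FAH liver 1 (-0.61), and the lower call of day 6 tumors against FAH liver (-0.55) without FAH liver 1 (-0.42) or day 6 tumor 3 (-0.49), with a change of sign after quantile normalization or equal totals. Ebp was called lower in hbHep than in day 6 tumors after quantile normalization (-0.45).

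Cyp51, lanosterol demethylase, showed the largest difference of the 8 between hbHep and FAH liver. Its values were 521.8, 859.1, 839.2 and 717 in YAP1on tumors, 2257, 2355, 2395 and 2396 in day 6 tumors, 2899, 1331 and 1919 in hbHep, and 570.6, 593.5 and 608.3 in FAH liver. YAP1on tumors and FAH livers shared a range, and every day 6 and hbHep sample lay above it. The hbHep to FAH liver difference was 1.72 (SE 0.22, adjusted p = 2.92e-05 by limma).

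The other 5 enzymes of this stretch rose by 1.20 to 1.77 in day 6 tumors. Msmo1, the methylsterol oxidase, stood at 2666 ± 579, 7533 ± 645, 8564 ± 2040 and 4646 ± 491 in YAP1on tumors, day 6 tumors, hbHep and FAH liver. Nsdhl, which removes the oxidised methyl group, stood at 1213 ± 263, 3232 ± 80.4, 2495 ± 1160 and 833.4 ± 86.4, and Hsd17b7, the ketosteroid reductase of that step, at 714.2 ± 145, 1621 ± 123, 1839 ± 276 and 841.2 ± 23.7. All 3 were called higher in hbHep than in FAH liver.

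Dhcr7, which reduces 7-dehydrocholesterol to cholesterol, stood at 601.7 ± 179, 1719 ± 173, 1024 ± 156 and 568.1 ± 121 in the same groups, and its hbHep call against FAH liver (0.86) was lost without FAH liver 1 (0.68). Tm7sf2, a sterol C14-reductase, stood at 736 ± 141, 2489 ± 197, 2873 ± 1263 and 2161 ± 346. Tm7sf2 was not called between hbHep and FAH liver (0.32), nor between day 6 tumors and FAH liver (0.21), and without hbHep mouse 2 the former was called (0.69, adjusted p = 0.0155 by limma). Tm7sf2 was called higher than in FAH liver with equal totals in hbHep (0.87) and day 6 tumors (0.91), and in day 6 tumors after quantile normalization (0.61).

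Ggps1, which leads farnesyl diphosphate away to geranylgeranyl diphosphate, did not follow the enzymes of the sterol branch. It stood at 288.7, 239.7, 236.3 and 235.8 in YAP1on tumors, 245.5, 176, 198.1 and 233.2 in day 6 tumors, 135.9, 178.8 and 189.8 in hbHep, and 237.5, 183.9 and 192.3 in FAH liver. The groups overlapped except that all 3 hbHep values lay below all 4 YAP1on values. The day 6 to YAP1on difference was -0.24 (SE 0.15, adjusted p = 0.291 by limma) and that of hbHep from YAP1on tumors -0.58 (adjusted p = 0.00675). With equal totals Ggps1 was called lower in day 6 than YAP1on tumors (-0.52) and in hbHep than day 6 tumors (-0.49), and higher than in FAH liver in day 6 (0.75) and YAP1on tumors (1.27).

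Among the hbHep mice the enzymes varied more than among the samples of any other group. Mouse 1 was highest of the 3 in 17 of 18 enzymes and mouse 2 lowest in 17. Their summed enzyme abundance was 131006 in mouse 1, 70572 in mouse 2 and 87827 in mouse 3, and the median coefficient of variation over the enzymes was 33.8%, against 20.6% in YAP1on tumors, 6.18% in day 6 tumors and 10.3% in FAH liver. The tumors of each tumor group came from 1 animal, and the hbHep and FAH liver values from 3 animals each. The spreads of the tumor groups are therefore of a different kind. The 2 libraries of a mouse differed at most 1.58-fold in an enzyme, in Lss of mouse 2.

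**Figure D4:**
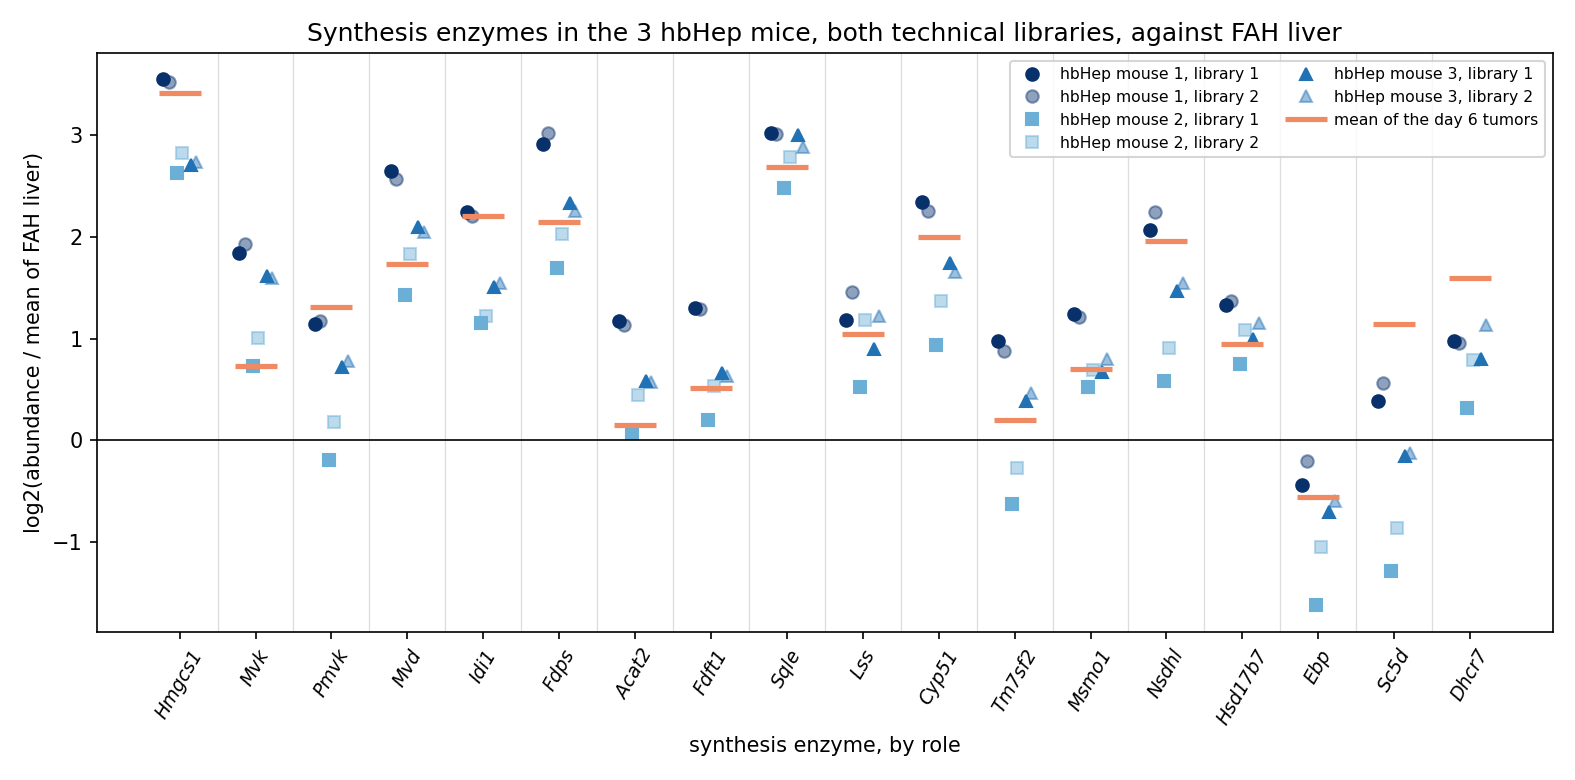
Abundance of the 18 synthesis enzymes (horizontal axis) in both technical libraries of each hbHep mouse, as log2 of the ratio to the FAH liver mean (vertical axis), with an orange bar at the mean of the day 6 tumors. Mouse 1 (circles) is highest in 17 of 18 enzymes and mouse 2 (squares) lowest in 17, and only Ebp has all points below the FAH liver mean.

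Leaving out hbHep mice changed several calls against day 6 tumors. Without any 1 of the 3 mice, Npc1l1 missed the filter on low values and was not tested. Without mouse 1, Hmgcs1 (-0.68), Cyp51 (-0.56), Nsdhl (-0.83) and Mylip (-0.61) were called lower in hbHep, and Insig2 (-0.37) was not. Without mouse 2, Mvd (0.61), Stard4 (0.58) and Soat2 (0.45) were called higher, and Pmvk (-0.35), Idi1 (-0.33) and Dhcr7 (-0.62) were not called. Without mouse 3, the count of called genes went from 11 to 7, with Idi1 at -0.49, Acat2 at 0.56 and Insig2 at -0.53 not called, and Idi1 was not called without day 6 tumor 3 (-0.50) or 4 (-0.55), nor in the values as deposited (-0.45), in which Soat2 (0.42) and Stard4 (0.47) were called higher and Insig2 (-0.47) was not called. Nsdhl was called lower after quantile normalization (-0.73) and with equal totals (-0.63).

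Of the 5 genes grouped here under SREBP2 control, 4 rose in day 6 tumors. The other, Mylip, was not called and is switched on by LXR, as given below. Srebf2, which encodes SREBP2 and is one of its own targets, stood at 1160, 1864, 1769 and 1914 in YAP1on tumors, 2451, 2728, 2694 and 2341 in day 6 tumors, 1512, 1462 and 1792 in hbHep, and 734.1, 833.1 and 1050 in FAH liver. Day 6 tumors were highest and FAH livers lowest without overlap, and hbHep lay within the YAP1on range. The rise in day 6 tumors was 0.63 (SE 0.16, adjusted p = 0.00776 by limma), less than that of any synthesis enzyme, and hbHep minus day 6 tumors was -0.69 and hbHep minus FAH liver 0.87. The difference of hbHep from YAP1on tumors, -0.06, was called lower after quantile normalization (-0.42) and with equal totals (-0.49), and the day 6 rise was not called with equal totals (0.35). Its promoter is among the 3 with the sterol element core shown above.

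Scap, the escort of SREBP2, was highest in FAH liver, where Srebf2 was lowest. Its means were 176.2 ± 34.2 in YAP1on tumors, 365.4 ± 18.3 in day 6 tumors, 436.5 ± 80.6 in hbHep and 626.1 ± 42.6 in FAH liver. It was called lower than FAH liver in all 3 other groups, at -1.84 in YAP1on tumors, -0.77 in day 6 tumors and -0.53 in hbHep. The hbHep call was lost without hbHep mouse 1 (-0.38) or FAH liver 3 (-0.49) and after quantile normalization (-0.46), and its sign changed with equal totals (0.02). The day 6 call was lost with equal totals (-0.07).

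Insig1, an INSIG gene that SREBP switches on, rose most of the control genes in day 6 tumors. It stood at 4513, 6498, 6211 and 4897 in YAP1on tumors, 13398, 13022, 12272 and 13834 in day 6 tumors, 15952, 7814 and 14473 in hbHep, and 15624, 12805 and 12286 in FAH liver. YAP1on tumors lay below all other samples, and the other 3 groups overlapped. The day 6 to YAP1on difference was 1.26 (SE 0.20, adjusted p = 0.000243 by limma), and that of hbHep from FAH liver was -0.15 (adjusted p = 0.651). So Insig1 was not called against FAH liver in the groups whose enzymes were called higher, although after quantile normalization (0.73) or with equal totals (0.66) it was called higher in day 6 tumors.

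Insig2, whose protein also holds SCAP back, differed least of the control genes between hbHep and FAH liver. It stood at 1013, 638.5, 978.3 and 687.7 in YAP1on tumors, 1955, 1736, 1605 and 1928 in day 6 tumors, 913, 1713 and 1133 in hbHep, and 1404, 1131 and 1258 in FAH liver. Among the hbHep mice it was highest in mouse 2, where most enzymes were lowest. The rise in day 6 tumors was 1.15 (SE 0.19, adjusted p = 0.000307 by limma) and the hbHep to FAH liver difference -0.06 (adjusted p = 0.861). Its hbHep call against day 6 tumors (-0.57) was lost without day 6 tumor 1 (-0.53) or 4 (-0.54), that against YAP1on tumors (0.57) without hbHep mouse 2 (0.32) or YAP1on tumor 2 (0.46) or 4 (0.49), after quantile normalization (0.34) and with equal totals (0.15), and the day 6 call against FAH liver (0.52) without FAH liver 2 (0.44) or 3 (0.51) or day 6 tumor 1 (0.48), 2 (0.53) or 4 (0.48), and in the values as deposited (0.40).

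Mylip, a ubiquitin ligase that marks lipoprotein receptors for breakdown and is switched on by LXR, was called in 0 of the 6 comparisons by limma, and its unadjusted p was at least 0.121 in each. Its values were 517.7, 340, 544.3 and 483.8 in YAP1on tumors, 383, 493.2, 467.3 and 452.7 in day 6 tumors, 538.9, 333 and 257.8 in hbHep, and 562.8, 385 and 406.1 in FAH liver. All 4 groups overlapped. The day 6 to YAP1on difference was -0.05 (SE 0.21, adjusted p = 0.894 by limma), and without hbHep mouse 1 Mylip was called lower in hbHep than in YAP1on tumors (-0.66) and FAH liver (-0.60). With equal totals it was called in 3 comparisons, hbHep minus YAP1on tumors (-0.80), day 6 minus FAH liver (0.71) and YAP1on minus FAH liver (1.05).

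Npc1l1, the sterol uptake protein of the apical and bile canalicular membrane, separated hbHep from all other groups. It stood at 1.07, 2.58, 1.497 and 7.95 in YAP1on tumors, 4.62, 6.98, 2.17 and 5.05 in day 6 tumors, 76.12, 72.1 and 260.4 in hbHep, and 1.36, 8.65 and 1.51 in FAH liver. The lowest hbHep mouse lay above every other sample. It passed the filter on low values, 10 in at least 3 samples, through hbHep alone, so a gene with this pattern had to differ, and its differences of 4.39 to 4.99 are given as a description. The 2 libraries of mouse 3 differed 4.9-fold (432.7 and 88.22), the widest gap among the 30 genes, against 93.33 and 58.92 in mouse 1. Without FAH liver 2, the sample highest in its group, the Npc1l1 difference from FAH liver was 5.55 in place of 4.88.

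Stard4, a carrier of cholesterol between membranes and an SREBP target, rose most among the genes of uptake, transport and storage in day 6 tumors. It stood at 482.9, 699.9, 652.3 and 579.4 in YAP1on tumors, 906.6, 969, 904.6 and 900.1 in day 6 tumors, 1372, 885.6 and 1374 in hbHep, and 708.8, 828.1 and 874.7 in FAH liver. YAP1on tumors were lowest without overlap. The rise was 0.62 (SE 0.15, adjusted p = 0.00601 by limma). The hbHep call against FAH liver (0.57) was lost without hbHep mouse 1 (0.46) or 3 (0.46) or FAH liver 1 (0.48), and the YAP1on call against FAH liver (-0.42) without FAH liver 2 (-0.40) or 3 (-0.36) or YAP1on tumor 1 (-0.32) or 4 (-0.41). Day 6 tumors were called higher than FAH liver after quantile normalization (0.40) and with equal totals (0.90).

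Soat2, which esterifies cholesterol for storage and lipoproteins, moved least of these genes. It stood at 713.3, 701.1, 781.1 and 727.5 in YAP1on tumors, 1043, 981.8, 891.7 and 1123 in day 6 tumors, 1248, 1047 and 1509 in hbHep, and 1519, 1074 and 1260 in FAH liver. YAP1on tumors lay below all other samples, and the other groups overlapped. The rise in day 6 tumors was 0.46 (SE 0.13, adjusted p = 0.0167 by limma) and the hbHep to FAH liver difference -0.02 (adjusted p = 0.934). The day 6 call against FAH liver (-0.34, adjusted p = 0.0469) was lost in 10 of the 14 fits that left out 1 sample, at values of -0.35 to -0.21, and after quantile normalization (-0.07), and its sign changed with equal totals (0.36).

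Of the 3 efflux genes, the pair Abcg5 and Abcg8 differed more between groups than Abca1. The pair encodes the transporter that moves cholesterol into bile. Abcg8 stood at 601.3, 790.1, 818.2 and 913.3 in YAP1on tumors, 1937, 2691, 1572 and 1874 in day 6 tumors, 4173, 5323 and 5046 in hbHep, and 7775, 5224 and 6300 in FAH liver. Abcg5 stood at 591.1, 637.7, 717.6 and 665.6, then 1266, 1571, 950.1 and 1232, then 1574, 2081 and 2075, then 3855, 2546 and 2869 in the same order. In both genes every YAP1on tumor lay below all other samples and the day 6 tumors came next, with hbHep and FAH liver above them.

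Against YAP1on tumors, Abcg8 was 1.36 higher in day 6 tumors (SE 0.17, adjusted p = 3.76e-05 by limma) and 2.64 higher in hbHep (SE 0.19, adjusted p = 2.86e-08), and Abcg5 was 0.92 and 1.54 higher. Against FAH liver, the Abcg8 difference was -3.04 in YAP1on tumors (8.22-fold lower) and -1.68 in day 6 tumors, and that of hbHep, -0.40, was not called (adjusted p = 0.139). Abcg5 in hbHep minus FAH liver was -0.68 (SE 0.18, adjusted p = 0.00906), and this was not called after quantile normalization (-0.42, adjusted p = 0.0516). Both genes were higher in hbHep than in day 6 tumors, by 1.28 in Abcg8 and 0.62 in Abcg5. The 2 genes share a gap of 109 bases between the starts used here, shown above, and are read away from it in opposite directions.

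Abca1, which exports cholesterol to lipoproteins and is switched on by LXR, was the efflux gene with the smallest differences. It stood at 4384, 5867, 5729 and 6986 in YAP1on tumors, 6776, 8953, 7530 and 6056 in day 6 tumors, 8678, 7857 and 8366 in hbHep, and 8516, 9226 and 10352 in FAH liver. YAP1on and day 6 tumors overlapped, and so did hbHep and FAH liver. The day 6 to YAP1on difference was 0.36 (SE 0.15, adjusted p = 0.11 by limma), and hbHep exceeded YAP1on tumors by 0.55 (adjusted p = 0.0109), with a change of sign after quantile normalization (-0.07) and no call with equal totals (0.12). The day 6 difference from FAH liver (-0.36) was called without day 6 tumor 2 (-0.47) or YAP1on tumor 1 (-0.36), and in the values as deposited (-0.48).

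In YAP1on tumors against FAH liver, a few uncalled enzymes were also called when 1 sample was left out. Idi1 was called without hbHep mouse 1 (0.41) or 2 (0.41) or YAP1on tumor 4 (0.50), and Fdps (0.45, 0.45 and 0.63) and Nsdhl (0.52, 0.52 and 0.67) without hbHep mouse 1, hbHep mouse 2 or YAP1on tumor 1. Mvk was called lower without hbHep mouse 2 (-0.33).

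The counts of the 4 pathway lists that follow stand against the shares over all genes given above, 12.8% higher and 10.8% lower in day 6 against YAP1on tumors and 19.9% and 17.1% in hbHep against FAH liver. Of 16 other sterol handling genes, 4 rose and 1 fell in day 6 tumors (median log2 0.16), led by Lcat, which esterifies cholesterol on lipoproteins (1.39), and Gramd1b, a carrier of membrane cholesterol (-0.87). With equal totals that split was 1 higher and 5 lower. In hbHep against FAH liver 6 of the 16 were higher and 2 lower, led by Gramd1b (2.95) and Ch25h, which makes 25-hydroxycholesterol (1.60, from levels of only 3.24 and 0.481), and with equal totals 13 were higher and 0 lower. Of 10 genes for SREBP processing and sterol-regulated degradation, 2 were higher and 1 lower in hbHep than in FAH liver, led by the ubiquitin ligases Rnf145 (1.20) and Rnf139 (-0.66), and the split was 8 to 0 with equal totals.

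Of 11 genes that use isoprenoids outside the sterol branch, such as prenyltransferases and coenzyme Q enzymes, 0 were called by limma in either direction in day 6 against YAP1on tumors (also 0 at an unadjusted p below 0.05, and 3 lower with equal totals), beside the 18 of 18 synthesis enzymes that rose. In hbHep 0 were higher and 3 lower than in FAH liver, led by Rabggta (-1.09) and Fnta (-0.76), and with equal totals 5 were higher and 1 lower. Of 10 genes of SREBP1 and fatty acid synthesis, 8 rose and 0 fell in day 6 tumors (median log2 1.14, and 5 to 0 with equal totals), led by Acss2 (2.38), which makes acetyl-CoA from acetate, and Scd1 (2.09), the stearoyl-CoA desaturase. Against FAH liver, 5 were higher and 2 lower in hbHep, led by Pnpla3 (3.96), a lipid droplet protein, and Thrsp (-2.52), a lipogenic gene. Pnpla3 had a mean of only 1.82 in FAH liver, against 39.05 in hbHep.

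Open chromatin was mapped by ATAC-seq, in which a transposase cuts accessible DNA, in 1 library each of YAP1on tumor, 3 times after YAP1 was turned off (days 14, 33 and 64) and WT liver. In each of the 5 interval lists, 24 of the 25 genes with a promoter entry had an interval within 500 bases of a start, against 53.1% to 55.2% of all genes, and the exception in every list was Npc1l1. All 25 passed the filter on low RNA values, while the share over all genes includes genes that did not. A share over the genes tested is not given here, so the gap is not particular to these genes on this evidence. With 1 library a condition there is no test, and an interval list does not give the strength of the signal. The bases covered per member were fewer in the YAP1on list (median 227) than in the others (571 to 698), and the YAP1on intervals were shorter in general, with a median of 21 bases against 61 to 71.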

How the data were processed

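Gene abundances came from the table the authors deposited for 17 RNA libraries (bcl2fastq, kallisto 0.45.0, sleuth and GRCm38.p6, per the submitters' processing notes). Its unit is a signal, read from the deposited values as scaled reads per base of transcript, not counts. Totals per library were 16 M to 42.1 M of these units. The value of 1 read was up to 3.05 times larger in FAH liver than in the YAP1on library with the smallest, so a given value there rests on fewer reads. The 2 libraries of an hbHep mouse were averaged, samples rescaled by median-of-ratios factors, genes at 10 or more in at least 3 samples kept, and log2(value + 1) fitted with limma 3.58.1 (R 4.3.3, trend), all 4 groups in 1 model, Benjamini-Hochberg over all genes. Fold changes are on that scale. The code was tested on simulated data. ATAC intervals (bcl2fastq, cutadapt, BWA, SAMtools, Picard and mm10, per the submitters' processing notes) were overlapped with RefSeq starts in bedtools 2.31.1. The interval lists' other column was not used, and no interval caller is named in the labels.

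All 30 genes are named with group means. Every sample's value is given for those with the largest or smallest difference of their role group in day 6 against YAP1on tumors or hbHep against FAH liver, or with the opposite sign to their group's median. Of each pathway list, the 2 called genes that differed most are named, except for 1 result that is not reported here. The genes and lists were chosen with earlier results of these data known. Labels give no sex, feeding state or time of day. The tumors of a group came from 1 mouse. In the main fit each p-value rests on 1 spread per gene, pooled over all 4 groups. That spread mixes differences between tumors of 1 mouse with differences between hbHep and between FAH liver mice. It holds no spread between animals for the tumor groups.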

Additional observations from a re-analysis of the deposited data

Results flagged for a closer look

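In groups of 4, 3 single values stood far from the other 3 by Dixon's criterion, among 60 groups tested, where chance gives about 1 in 20. Tm7sf2 in day 6 tumor 3 was at 2197 while the other day 6 tumors were at 2545 to 2609. Ggps1 in YAP1on tumor 1 was at 288.7, against 235.8 to 239.7 in the others. This tumor was also the lowest of its group in 17 of 18 synthesis enzymes and in summed hepatocyte markers. Stard4 in day 6 tumor 2 was at 969, against 900.1 to 906.6.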

How the results depend on the processing

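Of the 180 differences (30 genes in 6 comparisons), 88 were tested and kept sign and call under all 24 alternatives, the 6 of Npc1l1 were not tested in some, and 18 kept their call, or lack of one, with a change of sign. Calls lost and gained were 11 and 11 with quantile normalization, 15 and 19 with equal totals, 5 and 3 in the values as deposited, 8 and 0 with no filter on low values, 9 and 2 in fits of the 2 groups compared and 8 and 0 with the replicate block, beside the changes of sign below. The count of members called in day 6 against YAP1on tumors was 26 except with equal totals (24), without day 6 tumor 4 (25) and without YAP1on tumor 4 (27). The changes of sign listed here, of differences called before or after the change, arose under 2 scalings, and the cause was not tested. Changes of sign with no call either way are not listed. An example is Npc1l1 in YAP1on minus FAH liver, which went from -0.10 to 0.56 without FAH liver 2. With equal totals, a choice made after seeing the data, which moved the median of all genes to -0.26, -0.17 and -0.46 in day 6 against YAP1on, hbHep against day 6 and hbHep against YAP1on, values against FAH liver became 0.02 (Scap) and 0.54 (Soat2) in hbHep, 0.15 (Ebp), 0.66 (Insig1) and 0.36 (Soat2) in day 6 tumors, and 0.65 (Mvk), 0.97 (Pmvk), 0.30 (Fdft1), 0.87 (Lss), 0.17 (Msmo1), 0.73 (Hsd17b7), 0.09 (Sc5d), 0.35 (Insig2), 0.56 (Stard4), 0.19 (Soat2) and 0.27 (Abca1) in YAP1on tumors. With quantile normalization they became 0.02 (Ebp) and 0.73 (Insig1) in day 6 tumors, 0.09 (Fdft1), 0.42 (Lss), 0.00 (Msmo1), 0.14 (Sc5d) and 0.36 (Abca1) in YAP1on tumors, and -0.07 (Abca1) in hbHep against YAP1on tumors. Genes called in hbHep against FAH liver went from 6628 to 4305 in a fit of those 2 groups alone, which has fewer samples. With equal totals the split of all genes called, higher and lower, went from 3566 and 3062 to 8540 and 787 there, from 2302 and 1933 to 1144 and 4591 in day 6 against YAP1on, from 4322 and 3894 to 3317 and 4888 in hbHep against day 6, from 5167 and 4726 to 2890 and 8296 in hbHep against YAP1on, from 5682 and 5566 to 10679 and 2149 in day 6 against FAH liver, and from 6175 and 6023 to 12385 and 2097 in YAP1on against FAH liver. Leaving out each sample gave 7 to 12 called members in hbHep against day 6 tumors. With the replicate block, the members called were 26, 9, 26, 20, 20 and 16 in the 6 comparisons in place of 26, 11, 28, 21, 22 and 17, but same-numbered samples were not paired (correlations of deviations -0.23 to 0.19). With ATAC intervals of at least 200 bases, member promoters overlapped fell to 5, 7, 9 and 5 at days 14, 33 and 64 and in WT liver, and no YAP1on interval exceeded 162 bases. Reads per library limit low values such as Npc1l1.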

Other observations

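Among the 3 hbHep mice, some genes ran against the synthesis enzymes. Mouse 1, highest in 17 of 18 enzymes, was the lowest of the 3 in Scap (346.5, against 461.3 and 501.9), Insig2 (913, against 1713 and 1133), Abcg5 (1574, against 2081 and 2075) and Abcg8 (4173, against 5323 and 5046). These are values of 3 animals at days 121, 114 and 117, noticed in the data, with no test.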
